A study of Homo sapiens with 2 samples.

Results

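The 35 genes described here drive entry into S phase and carry out DNA replication. They were taken from a list of gene symbols, and each is represented by the probe set that was brightest over both arrays, where a probe set is a group of array probes designed for 1 transcript. They are 35 of the 19775 genes with a probe set annotated to a single symbol. All 35 were above the floor, set at the median value of the non-control probe sets (4.59 on the log2 scale), as were 12841 genes in all, and these 12841 are the genes compared. Total RNA came from HCT15, an established human colorectal cancer cell line. There were 2 cultures, 1 array each: cells given ARID3B-directed Cas9 and guide RNA, whose genotype label is ARID3B knockout, and cells given a control, whose genotype label is control. The sources used here do not say whether the edited cells were a clone or a pool, or what the control construct was.

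As background, passage from G1 into S phase is driven by cyclin E with its kinase CDK2 and by the E2F transcription factors, which are held back by the retinoblastoma protein and, once released, switch on the genes of replication. In G1 the origin recognition complex, CDC6 and CDT1 load the MCM helicase onto origins, a step called licensing. In S phase CDC45 and the GINS complex turn the loaded ring into an active helicase, and polymerases, the PCNA clamp and flap endonuclease copy the DNA from deoxynucleotides made by ribonucleotide reductase and thymidylate synthase. In the colon these genes are active in the dividing cells of the crypt, and their transcripts are commonly abundant in proliferating colorectal cancer cells.

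The ARID3B transcript was at 6.09 on the array labelled knockout and at 5.12 on the control array. Its only probe set was thus 1.95-fold higher, the opposite of a loss, although the site of the edit relative to the probes is unknown and a probe set away from it would check nothing. The array is called the knockout-labelled array, and every direction rests on the labels. Of 11 colon epithelial markers 9 were above the floor, KRT20 and LGALS4 being under it. The summed linear values of the 11 were 17358 on the knockout-labelled array and 17022 on the control array. These sums rest mainly on EPCAM, KRT8, KRT18, KRT19 and CDH1. VIL1, CDX1, CEACAM5 and CDX2 stood at 5.25 to 6.91 on the knockout-labelled array, below the fibroblast marker COL1A1 at 7.12. Between the arrays CDX2 differed by 0.64 and CDH1 by -0.45 on the log2 scale. The markers of lymphocytes and myeloid cells (3 of 5 above the floor), fibroblasts (2 of 6) and endothelium (2 of 5) summed to between 108 and 204 on either array. Poly-A spike-ins are bacterial transcripts that are usually put into the RNA ahead of labelling. In the mean of their 24 probe sets the knockout-labelled array was 2.28-fold below the control array. Single spike-in probe sets differed by -1.46 to -0.78 on the log2 scale, and the spike-in scale used below rests on their mean. The 18 probe sets of the hybridisation controls, another control set of the array, differed by -0.14 in the mean. The part of the spike-ins in the results below was not tested.

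To show what these genes share outside the expression values, their promoters were read from RefSeq sequences of build GRCh38.p14, from 250 bases before to 50 after each annotated start. A promoter was found for 31 of the 35 genes. The motifs searched as E2F-type were the letters TTCCCGC and the forms with other middle letters, which are TTGGCGC, the mixed form TTCGCGC and the other mixed form TTGCCGC, on both strands and with overlapping matches counted. Such a match lay in at least 1 promoter of 25 of these 31 genes (80.6%), against 24.2% of all compared genes with a promoter in the table. The share was 55.2% in the other replication genes described below, so such matches are not particular to the 35 genes. Counted by promoter and not by gene, 65.9% of the promoters of the 31 genes held such a match. Over all promoters of the table, which have the same length, 13.0% did. The searched letters are rich in G and C. The median share of G and C was 67.7% in the promoters of the 31 genes, 64.7% in those of compared genes and 58.7% in all. The stretches below are shown because they set genes that were lower on the knockout-labelled array (E2F3, GINS2, UHRF1, TK1 and MCM6) beside genes that were hardly lower or were higher (CDT1, E2F1, ORC1 and MCM7) and carry the same letters. Each is 60 bases long and lies before an annotated start site, 5′ to 3′ on the strand of the gene, with the E2F-type matches in capitals.
E2F3: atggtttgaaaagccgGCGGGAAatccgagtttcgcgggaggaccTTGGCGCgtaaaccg
GINS2: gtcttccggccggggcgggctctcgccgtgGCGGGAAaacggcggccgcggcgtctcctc
UHRF1: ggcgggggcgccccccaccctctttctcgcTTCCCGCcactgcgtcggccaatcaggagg
TK1: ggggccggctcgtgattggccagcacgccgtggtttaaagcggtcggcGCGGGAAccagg
MCM6: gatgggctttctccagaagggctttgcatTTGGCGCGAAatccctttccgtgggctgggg
CDT1: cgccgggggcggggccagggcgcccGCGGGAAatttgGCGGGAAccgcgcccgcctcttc
E2F1: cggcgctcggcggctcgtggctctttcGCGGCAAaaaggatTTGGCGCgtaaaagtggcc
ORC1: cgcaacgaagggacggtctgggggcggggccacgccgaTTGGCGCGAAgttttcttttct
MCM7: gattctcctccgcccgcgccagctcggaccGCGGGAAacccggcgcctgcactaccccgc

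These stretches lie at chr6:20401810-20401869 on the plus strand for E2F3, chr16:85688956-85689015 on the minus strand for GINS2, chr19:4909367-4909426 on the plus strand for UHRF1 and chr17:78187053-78187112 on the minus strand for TK1. Those of the other genes lie at chr2:135876564-135876623 on the minus strand for MCM6, chr16:88803729-88803788 on the plus strand for CDT1, chr20:33686386-33686445 on the minus strand for E2F1, chr1:52404424-52404483 on the minus strand for ORC1 and chr7:100101555-100101614 on the minus strand for MCM7. In MCM6 and in ORC1 the 10 capital letters hold 2 overlapping matches, TTGGCGC on the strand of the gene and TTCGCGC on the opposite strand. MCM6 was lower by 0.52 on the log2 scale and ORC1 was higher by 0.14.

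Most of the 35 genes were lower on the knockout-labelled array than on the control array, by small amounts and relative to all other genes. In bulk RNA, fewer cells in S phase and less of a transcript per cell cannot be told apart. Of the 35, 30 were below 0 and 5 above, where 45.1% of all compared genes were below 0. With the arrays scaled on the mean of the spike-ins only CCNE2 was below 0, beside 2.46% of all compared genes. FEN1, GINS2, GINS3 and MCM10, at -1.07 to -0.84 as normalised by the authors, lay inside the range of single spike-in probe sets. The median difference of the 35 genes (knockout-labelled minus control, log2) was -0.28, a 1.21-fold lower level, beside 0.04 over all compared genes. At least 1.5-fold lower were 10 of the 35 (28.6%), against a background of 10.5%, and none was 1.5-fold higher, against 5.83%. Only CCNE2 and FEN1 were at least 2-fold lower (5.71% of the 35, background 3.79%), and none was 2-fold higher (background 1.05%). Scaling on the spike-ins moved the median of all genes from 0.04 to 1.22. Relative to that median, the difference of the 35 genes was -0.31. It is the same with either scaling by construction, since the scaling adds 1 amount to every gene. On the spike-in scale none of the 35 was 2-fold lower, against 44 of all 12841 compared genes (0.343%). On that scale 11 of the 35 were 2-fold higher, a smaller share than the 9137 of all 12841. The authors' scale gave 487 of the 12841 lower (3.79%) and 135 higher (1.05%).

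Each group had 1 array, so there is no replicate check and no test, and each value describes these 2 arrays, whose number limits the precision. As a scale for single genes, the spread among genes of similar level (scaled median absolute deviation of differences, in 10 bins of level) ran from 0.26 to 0.44. Of the 35 genes, 17 were lower by more than the spread of their bin (48.6%, background 18.4%) and none was higher by more than it (background 16.4%). The other 18 differed by less than that spread.

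**Figure D1:**
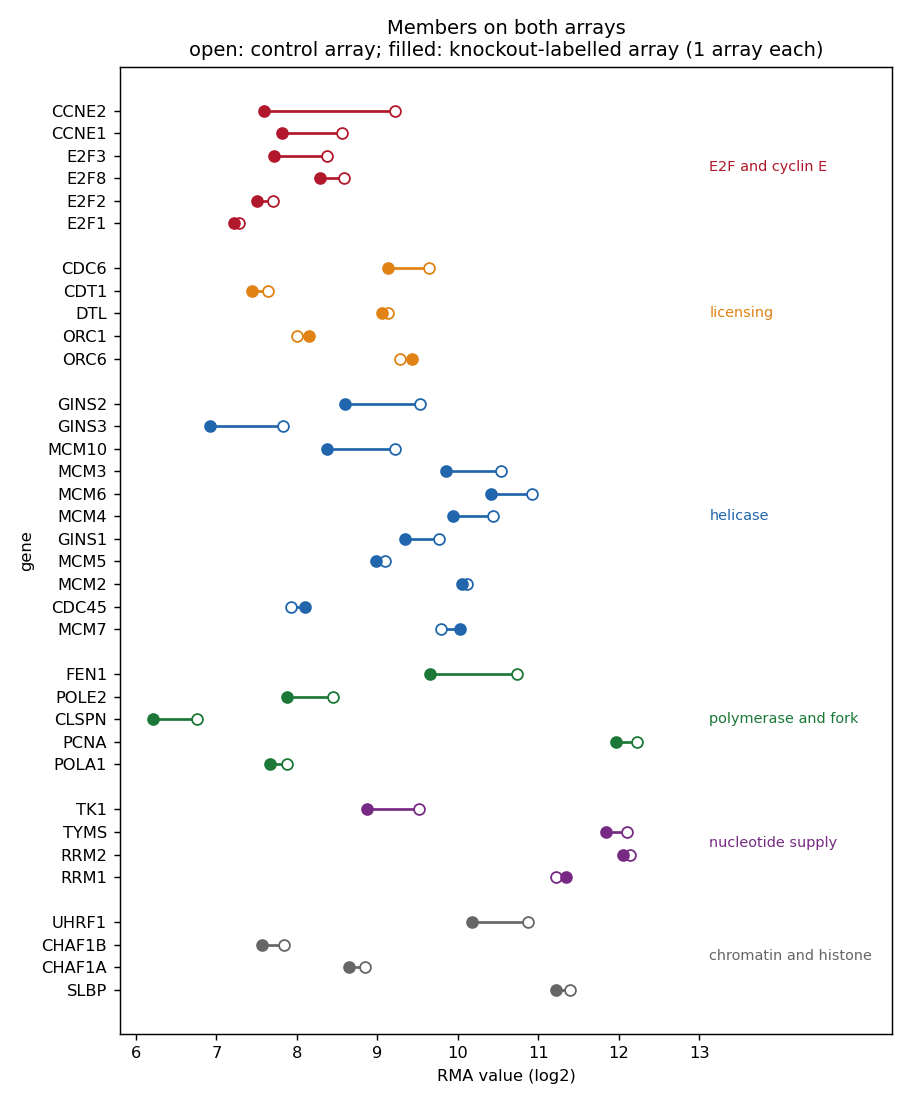
RMA values (log2, x axis) of the 35 genes on the control array (open circles) and the knockout-labelled array (filled circles), 1 array each, grouped by role. The filled circle lies to the left for 30 genes, with the longest gap for CCNE2 (9.23 to 7.60), and to the right for ORC1, ORC6, CDC45, MCM7 and RRM1; scaling on the spike-ins would move all filled circles right by 1.19. Levels of different genes come from different probes and are not comparable.

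**Figure D2:**
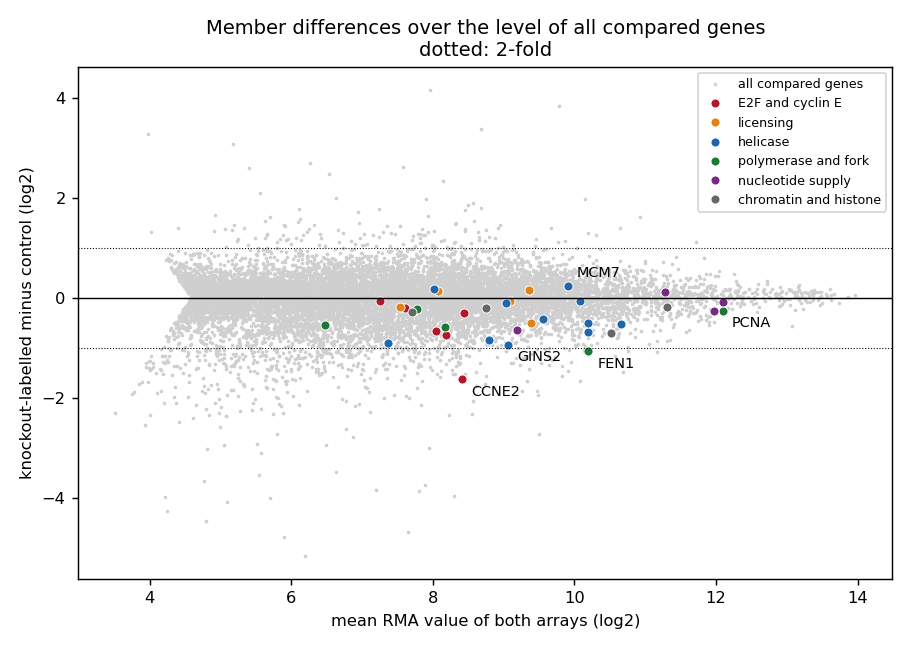
Difference between the arrays (log2, y axis) over the mean RMA value of both arrays (log2, x axis) for all 12841 compared genes (grey) and the 35 genes (coloured by role), with dotted lines at 2-fold. CCNE2 and FEN1 lie below the lower line and the others between the lines; on the spike-in scale all points would move up by 1.19.

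Among the regulators of S-phase entry, both E-type cyclins were lower and the E2F genes spread from near 0 to -0.66. All 6 genes of this role were below 0 (background 45.1%) as normalised by the authors, with a median of -0.48, and the median was 0.71 on the spike-in scale. CCNE2, which encodes cyclin E2, an activator of the kinase CDK2, stood at 7.60 on the knockout-labelled array and 9.23 on the control array, 3.09-fold lower (-1.63), with 0.97% of compared genes as low or lower. Its other probe set stood at 6.80 and 8.78, 3.93-fold lower. These were the lowest 2 values among all 68 probe sets of the 35 genes.

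CCNE1, which encodes cyclin E1 with the same role, stood at 7.82 and 8.56, 1.67-fold lower (-0.74). Its second probe set, at 4.30 and 3.85, was under the floor on both arrays and differed by 0.46 in the other direction. E2F3, an activator E2F, was at 7.71 and 8.37 (-0.66), and its second probe set differed by -0.60. The pair of E2F3 probe sets therefore gave nearly the same size.

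The other activator E2Fs differed less. E2F1 was at 7.22 and 7.28 (-0.06) and was higher by 0.18 in its second probe set, so that no direction can be read. E2F2 was at 7.50 and 7.71 (-0.21), with 0.00 and -0.24 in its other probe sets. E2F8, an atypical E2F that represses E2F targets, was at 8.29 and 8.58 (-0.29). Each of these 3 genes differed by less than the spread of its bin. Outside the 35 genes, the repressor-type E2F5 was at -0.73, E2F6 at -0.23, the atypical E2F7 at -0.20 and E2F4 at 0.08, with another E2F4 probe set at -0.14.

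The licensing genes had a median near 0 in their brightest probe sets, and it depended on the probe sets used. It was 0.14 with the probe sets of each gene averaged, and -0.40 over the 2 genes left without _x_at, _s_at and _a_at probe sets. Of 5, 3 were below 0, their median was -0.07 (1.12 on the spike-in scale), and none was 1.5-fold lower. CDC6, an ATPase that helps load the MCM ring, was at 9.13 on the knockout-labelled array and 9.64 on the control array (-0.51), and its second probe set, at 8.47 and 9.42, was 1.94-fold lower (-0.95). ORC1 (8.15 and 8.01, 0.14) and ORC6 (9.43 and 9.28, 0.15), subunits of the origin recognition complex, were slightly higher. Of the other subunits, ORC3 was at 0.30, ORC2 at -0.07 and ORC5 at -0.21. ORC4 was at 0.12 in its brightest probe set and at -0.56 in the other.

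The remaining licensing genes had probe sets of both signs. CDT1, the loading factor that is destroyed at the start of S phase, was at 7.45 and 7.64 (-0.19), whereas its second probe set was higher on the knockout-labelled array at 7.34 against 6.67 (0.67). DTL, the substrate receptor of the ubiquitin ligase that destroys CDT1, was at 9.06 and 9.13 (-0.07) and at 0.07 in its second probe set. Neither gene has a settled direction. GMNN, the inhibitor of CDT1, differed by -0.10.

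The helicase genes were lower in 9 of 11 cases (81.8%, background 45.1%) as normalised by the authors, and unevenly within 1 complex. Their median was -0.50 (0.69 on the spike-in scale), and 4 of 11 were at least 1.5-fold lower (36.4%, background 10.5%). Among MCM2 to MCM7, the subunits of the hexameric ring, MCM3 differed most, at 9.86 and 10.54 (-0.69). MCM6 was at 10.41 and 10.92 (-0.52), and MCM4 at 9.94 and 10.44 (-0.50). In contrast MCM5 (8.98 and 9.09, -0.11) and MCM2 (10.05 and 10.11, -0.06) hardly differed, and MCM7 was higher, at 10.03 and 9.79 (0.24).

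For 4 of these 6 subunits more than 1 probe set was available, and each kept its sign over them. The 5 probe sets of MCM4 ran from -0.58 to -0.07. The 2 probe sets of MCM5 differed by -0.11 and -0.13, and the 2 of MCM7 by 0.24 and 0.09. MCM6 differed by -0.23 in its second, much dimmer probe set. Within the ring the differences thus spanned 0.93 on the log2 scale, from MCM3 to MCM7, and the 6 subunits had a median of -0.30.

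The GINS subunits, which join CDC45 and the MCM ring in the active helicase, were all lower. GINS2 was at 8.59 on the knockout-labelled array and 9.53 on the control array, 1.91-fold lower (-0.93). Its other probe sets, close to the floor, differed by -0.16 and -0.50. GINS3 was at 6.92 and 7.82, 1.87-fold lower (-0.90), and its second probe set was 2.17-fold lower (6.60 and 7.72, -1.12). GINS1 was at 9.35 and 9.77 (-0.42) in its only probe set. GINS4, outside the 35 genes, was at -0.46, with another probe set at 0.00. The 4 subunits had a median of -0.68, and each was lower by more than the spread of its bin (background 18.4%).

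The partners of GINS did not share a direction. MCM10, an initiation factor needed to activate the helicase, was at 8.38 and 9.21, 1.79-fold lower (-0.84), but its other probe sets differed by -0.30 and -0.09. CDC45 was at 8.10 and 7.93 (0.17), slightly higher, in its only probe set. The size for MCM10 hence rests on its brightest probe set.

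All 5 polymerase and fork genes were below 0 (background 45.1%) as normalised by the authors, with a median of -0.55 (0.64 on the spike-in scale). FEN1, the endonuclease that trims the flaps of Okazaki fragments, was at 9.66 on the knockout-labelled array and 10.73 on the control array, 2.10-fold lower (-1.07). Its second probe set was at 8.74 and 9.65, 1.88-fold lower. The brightest probe set thus differed by more than the spread of 0.26 among genes of its level.

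POLE2, a subunit of the leading-strand polymerase epsilon, was at 7.88 and 8.45 (-0.57), and CLSPN, the checkpoint mediator claspin, at 6.21 and 6.76 (-0.55). The second CLSPN probe set above the floor differed by -0.65, and 2 more were under the floor on both arrays. PCNA, the sliding clamp, was at 11.97 and 12.23 (-0.26), and POLA1, the catalytic subunit of polymerase alpha, at 7.66 and 7.88 (-0.22). POLE2 and CLSPN were each lower by more than the spread of their bin and POLA1 was not, while the difference of PCNA and the spread of its bin were both 0.26 in size.

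Of the nucleotide supply genes only TK1 was 1.5-fold lower in its brightest probe set. Their median was -0.17 (1.02 on the spike-in scale), with 3 of 4 genes below 0. TK1, the salvage kinase for thymidine, was at 8.88 and 9.51 (-0.64), and its second probe set differed by -0.63. TYMS, which makes thymidylate, was at 11.85 and 12.10 (-0.25), and its other probe sets differed by -0.24 and, in a dim one at 4.52 and 5.30, by -0.78. RRM2, the small and cell-cycle-regulated subunit of ribonucleotide reductase, was at 12.06 and 12.14 (-0.09), and at -0.34 in its second probe set. RRM1, the large subunit, was at 11.34 and 11.22 (0.12), and at 0.23 in its second. Both RRM2 probe sets were thus below 0 and both RRM1 probe sets above it, at small sizes.

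The chromatin and histone genes were all 4 below 0 (background 45.1%) as normalised by the authors, with a median of -0.24 (0.95 on the spike-in scale). UHRF1, which recruits the maintenance DNA methyltransferase to hemimethylated DNA, was at 10.17 and 10.87, 1.62-fold lower (-0.70), in its only probe set. CHAF1B (7.57 and 7.85, -0.28) and CHAF1A (8.65 and 8.85, -0.20) encode subunits of the histone chaperone CAF-1. Further CHAF1A probe sets were nearer to 0, at -0.08 and -0.01 and, under the floor on both arrays, at -0.11. SLBP, the binding protein of replication histone mRNA, was at 11.22 and 11.39 (-0.17). Only UHRF1 was lower by more than the spread of its bin.

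A second reading of the same arrays came from the further probe sets. The 35 genes had 68 probe sets, of which 64 were above the floor and 53 of those below 0. The share over all probe sets is not given here. Of the genes, 21 had 2 or more probe sets above the floor, and 15 of these had all of them below 0 (71.4%), against a background of 29.3%. MCM7 and RRM1 had all of them above 0, and E2F1, CDT1 and DTL had both signs, while E2F2 had a probe set with the same value on both arrays. Probe sets of a gene share the RNA and the array, so they check the probes and not the cultures.

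**Figure D3:**
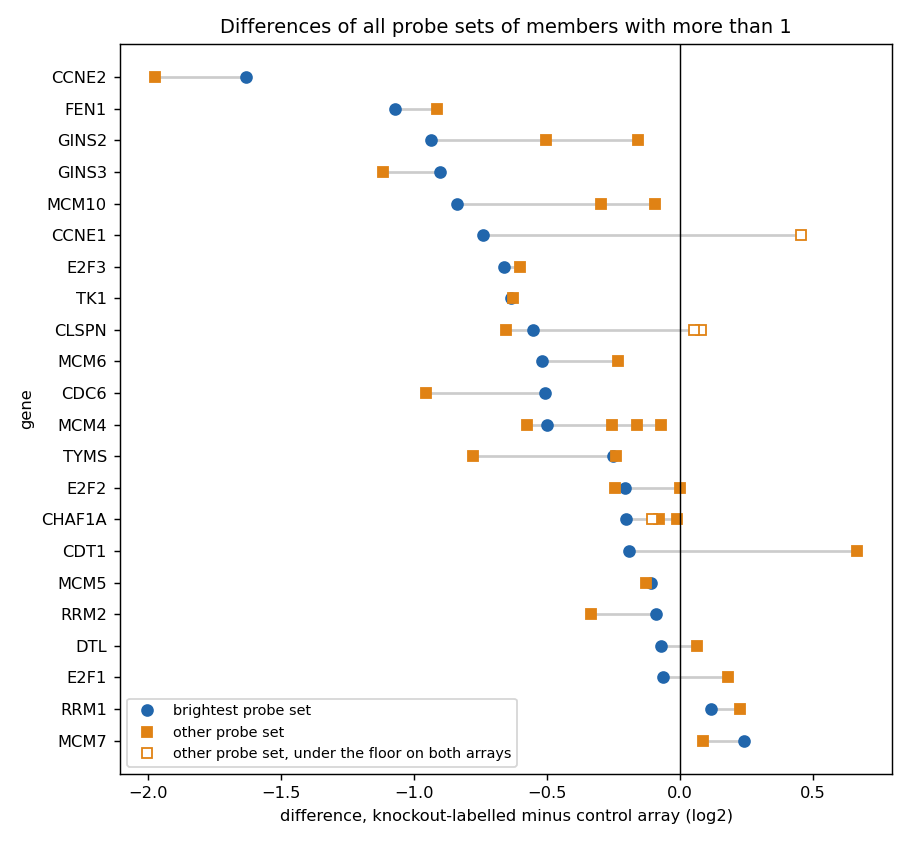
Difference between the arrays (log2, x axis) for every probe set of the 22 genes with more than 1, the brightest as a blue circle, others as orange squares, open where under the floor on both arrays. Both probe sets of CCNE2 and of FEN1 lie at or below -0.91, while those of CDT1 lie on either side of 0; on the spike-in scale all points would move right by 1.19.

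Read against the size of the difference, the E2F-type matches did not separate the genes. A match lay in a promoter of 6 of the 9 genes with a promoter that were at least 1.5-fold lower (66.7%), and of 19 of the other 22 (86.4%). FEN1, MCM10 and CCNE1, all among the 10 lowest, held no match in this window, as did SLBP, ORC6 and CDC45. Of 45 matches 40 began before the start site, 27 of them within 100 bases of it. A match describes letters and not a bound site, and no match says only that these letters are not in the window. The CCAAT letters lay in a promoter of 67.7% of the 31 genes and of 43.0% of compared genes. TTTGAA, searched as the cell-cycle homology element, lay in 6.45% and 13.8%. In the G2/M genes described below the shares were 79.2% for CCAAT and 66.7% for TTTGAA. In the other replication genes they were 53.4% and 10.3%. An E2F-type match lay in a promoter of 32 of the 58 other replication genes with a promoter (55.2%). It lay in a promoter of 6 of the 24 G2/M genes with a promoter.

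**Figure D4:**
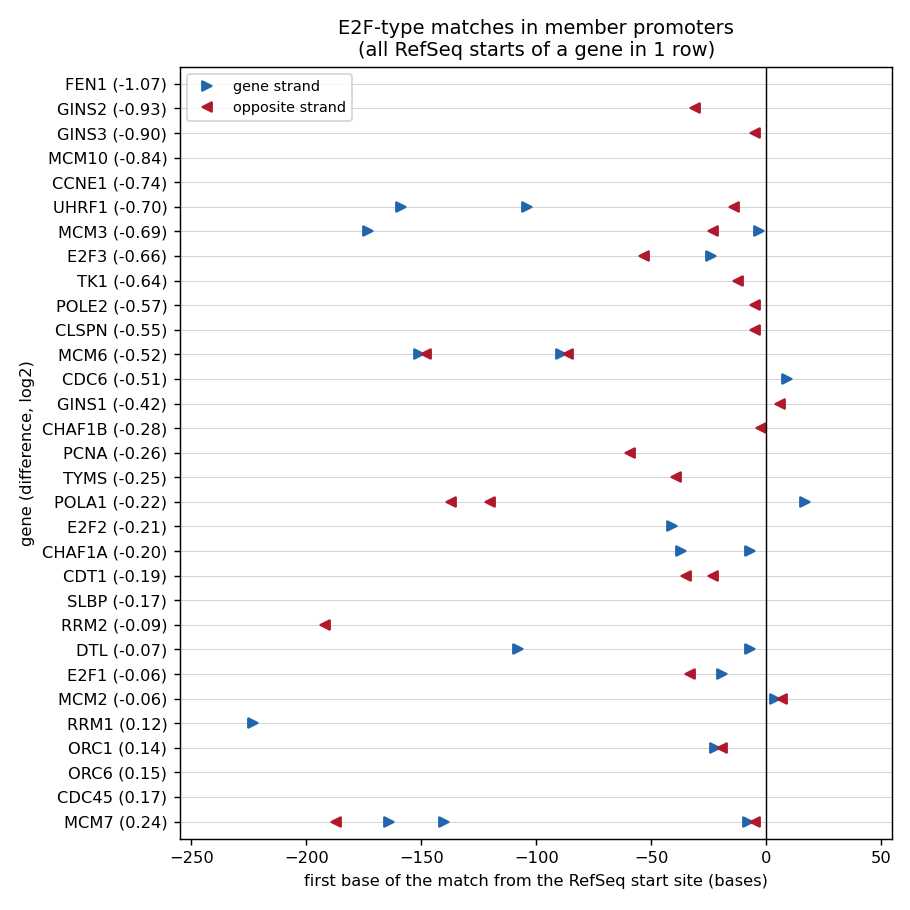
First base of each E2F-type match relative to the RefSeq start site (bases, x axis) in the promoters of 31 genes, ordered from the lowest difference at the top to the highest at the bottom, with arrows for the strand. Most matches over all genes lie within 100 bases before the start, as does that of the lower gene GINS2 at -31. Among higher genes, ORC1 has matches at -22 and -19, MCM7 at -187, -164, -140, -8 and -5, and RRM1 at -223. The differences in brackets are on the authors' scale, and 1.19 is added to each on the spike-in scale.

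The rest of the replication pathway differed less than these 35 genes. Of 70 other genes with a value, 40 were below 0 (57.1%, background 45.1%), and their median was -0.08 (1.11 on the spike-in scale). At least 1.5-fold lower were 5 (7.14%, background 10.5%), and 1 was as much higher (1.43%, background 5.83%). The 3 genes at least 2-fold lower (4.29%, background 3.79%) were CTPS1, DSCC1 and TIPIN. CTPS1, a CTP synthase, was at 7.30 on the knockout-labelled array and 8.81 on the control array, 2.85-fold lower. TIPIN, the partner of TIMELESS in the fork protection complex, was 2.22-fold lower (7.75 and 8.90). DSCC1, a subunit of an alternative clamp loader, was at 7.78 and 8.85 (-1.07), but another probe set differed by 0.06.

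The E2F, retinoblastoma and S-phase kinase genes of that list had differences of both signs. TFDP1, a dimer partner of the E2Fs, was at -0.53 and at no more than -0.53 in any of its 3 probe sets, and CDC25A, the phosphatase that activates CDK2, at -0.60. TFDP2, another dimer partner, was at 0.42 in its brightest probe set, and its 3 probe sets ran from -0.33 to 0.42. Higher in each probe set above the floor were the pocket proteins RBL2 (0.54) and RB1 (0.41), which hold E2F back, and the S-phase and G2 cyclin CCNA2 (0.34). CDK2 was at 0.44 in its brightest probe set, and its 3 probe sets ran from -0.12 to 0.44. The pocket protein RBL1, itself a known E2F target, was at -0.22, and its 3 probe sets ran from -0.22 to 0.25, so that neither gene has a settled direction. On the spike-in scale all of these differences, to which 1.19 is added, were above 0.

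Set beside the 2 most similar gene lists, the 35 genes had the lowest median, -0.28. The G2/M list had 5 of 30 genes below 0 (16.7%) and a median of 0.43. The DNA repair list had 9 of 18 genes below 0 and a median of -0.02. On the spike-in scale these medians were 1.62 and 1.17, and that of the 35 genes was 0.91, since this scaling adds 1.19 to every gene and cannot change their order. The differences between the lists were not tested, as genes of 1 pair of arrays are not replicates.

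**Figure D5:**
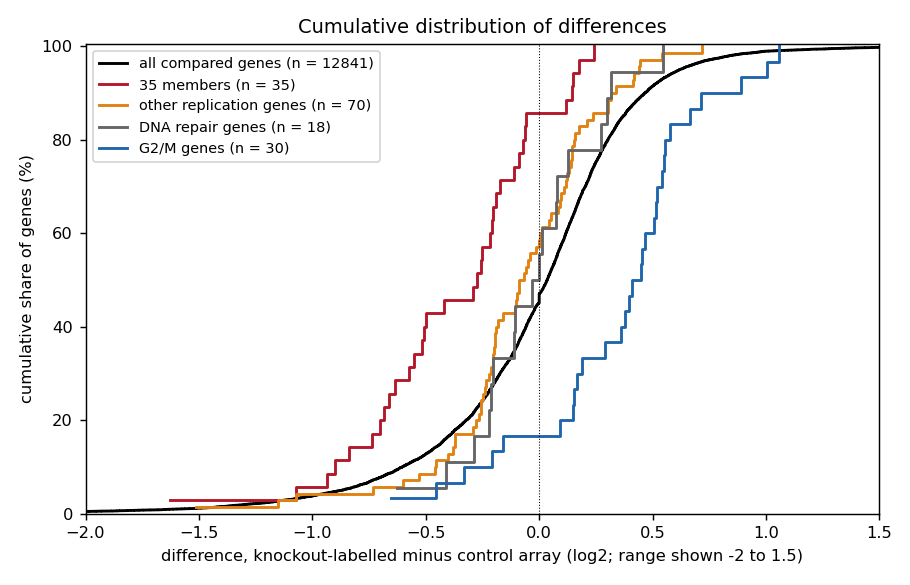
Cumulative share of genes (%, y axis) by difference between the arrays (log2, x axis, from -2 to 1.5) for the 35 genes, 70 other replication genes, 18 DNA repair genes, 30 G2/M genes and all 12841 compared genes. At 0 the curve of the 35 genes has reached 85.7%, that of the other replication genes 57.1% and that of the G2/M genes 16.7%; on the spike-in scale all curves would move right by 1.19.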

How the data were processed

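The deposited values are log2 expression values per probe set, and the submitters' processing notes name RMA, without a version, as the authors' method. RMA sets the arrays to a common distribution, so that differences are relative within an array. The sources used here do not say which arrays entered it together. Of 54613 non-control probe sets, 41091 had 1 gene symbol in the platform annotation, 1801 several and 11721 none, and only the first were used. The symbols of all 35 genes matched a RefSeq gene table by Entrez identifier.

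From these values the knockout-labelled minus control difference was computed (Python 3.11.15, pandas 2.3.3). A gene was compared when its higher value was at or above the floor. The 2-fold calls were checked on simulated data with large planted differences, while the sign, 1.5-fold and spread calls were not. The 35 genes and all lists were chosen with earlier results of these data known. Outside the 35 genes and ARID3B, the rule allowed naming the 4 genes of each list role with the largest difference. All members of the E2F, ORC, GINS, RFC and RPA families, POLE3, POLD3 and the regulators TFDP2, RB1, RBL1, CDK2, CCNA2 and GMNN were named as well, chosen after their values were seen. Some list genes were not analysed here. As 11 alternatives the floor was dropped or raised to the 75th percentile, a gene was given by its averaged or its second brightest probe set, probe sets ending in _x_at, _s_at or _a_at were left out, an intensity trend was removed (lowess, span 0.3), and the arrays were centred on the median or scaled on 55 ribosomal protein genes or on the spike-ins. In the last 2, values were raised to the floor, or 64 linear units were added.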

Additional observations from a re-analysis of the deposited data

How the results depend on the processing

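No paired analysis was possible because each group had 1 array. Over the 10 alternatives other than spike-in scaling, the median of the 35 genes stayed within 0.1 of its value except without _x_at, _s_at and _a_at probe sets, where 24 genes had a value and it was -0.38. Neither the changes of floor nor raising values to the floor could move it, since all 35 genes passed both floors. Centring and ribosomal protein scaling shift every gene by the same small amount, -0.09 for the latter. With the second brightest probe set 15 genes were below 0, of the 21 that had one (48.7% of all genes). On the spike-in scale the median was 0.91, 1 gene was below 0 (2.46% of all genes), and 0 were 2-fold or 1.5-fold lower (0.343% and 0.755%). FEN1 then differed by 0.12, and the role medians were 0.71 (E2F and cyclin E), 1.12 (licensing), 0.69 (helicase), 0.64 (polymerase and fork), 1.02 (nucleotide supply) and 0.95 (chromatin and histone). The medians of the other replication, G2/M and DNA repair genes were 1.11, 1.62 and 1.17. That shift is the construction of the scaling, which adds 1.19 to every gene.

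Role medians rest on few genes and moved with the choice of probe set. As the mean of probe sets they were -0.22 for E2F and cyclin E, 0.14 for licensing, -0.37 for helicase, -0.27 for polymerase and fork and -0.32 for nucleotide supply genes. With the second brightest probe set they were -0.30, 0.066, -0.23, -0.78 and -0.29 in the same order, -0.077 for chromatin and histone and -0.15 for DNA repair genes. Without _x_at, _s_at and _a_at probe sets they were -0.29 for E2F and cyclin E, -0.40 for licensing, -0.40 for polymerase and fork, -0.34 for nucleotide supply and -0.49 for chromatin and histone genes. With 64 units added the polymerase and fork median was -0.32. The cause of each shift was not tested. Scaling on ribosomal protein genes gave 15 genes at least 1.5-fold lower and 3 at least 2-fold lower (13.1% and 4.70% of all genes). Of 325 values of single genes under the 10 alternatives, 12 moved by more than the spread among genes of similar level. All 12 came from the choices of probe set. The alternatives of floor, centring and ribosomal protein scaling could not move a value by that much, so the 325 overstate how much was tried.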

Other observations

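The clamp loader and the single-strand binding complex, both outside the 35 genes, had subunits of both signs. In the clamp loader RFC, which places PCNA on DNA, RFC1 differed by 0.72, with another probe set at -0.07, and RFC3 by -0.45. RFC4 (0.16), RFC5 (0.15) and RFC2 (-0.10) lay nearer to 0. In the single-strand binding complex RPA the differences were -0.37 for RPA2, -0.09 for RPA1 and 0.24 for RPA3, with the 3 probe sets of RPA1 running from -0.09 to 0.30. All 4 measured subunits of polymerase epsilon were below 0 (background 45.1%), from POLE2, one of the 35 genes, at -0.57 to POLE3 at -0.09. Of 3 subunits of polymerase delta 1 was below 0 in its brightest probe set (33.3%, background 45.1%). It was POLD3 at -0.20, with another probe set at 0.33. On the spike-in scale 1.19 is added to each of these values, and all are above 0. These genes were picked after their values were seen.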
